A study of Rattus norvegicus with 16 samples.

Results

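The genes described here were the C-type lectins and the natural killer (NK) cell lectin-like receptors of the rat, chosen by symbol as every gene whose name starts with Clec or Klr. Of 65 such symbols in the RefSeq gene table, 49 had a probe on the array and 16 had none. Among the latter were Clec3b and Clec6a-ps1, the pseudogene under which the table lists Clec6a. The 49 genes were measured by 60 probes, out of 16678 genes that could be named, and 44 of them lie on chromosome 4. They comprised 14 myeloid lectins, 18 NK lectin-like receptors, 10 Clec2 genes, 4 vascular and platelet lectins and 3 other lectin-domain genes.

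Expression was measured in the lungs and adipose tissue of the same 8 male Brown Norway rats, whose age is given as 7 weeks before treatment, on 16 one-color Agilent arrays. The 5 HDM rats had been sensitized under the skin with 45 µg of house dust mite in Al(OH)₃ and then challenged through the nose with 120 µg of house dust mite in saline. The 3 control rats had received saline in Al(OH)₃ and then saline, so that the adjuvant was common to both groups. All values below are log2 signals relative to the 75th percentile of the array, with 1 probe per gene, the brightest in the tissue. A probe was called when its adjusted p (limma with Benjamini–Hochberg adjustment over 45598 probes) was below 0.05 and its fold change was above 1.5.

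C-type lectins carry a domain related to the one that binds sugars in mannose-binding proteins. On macrophages, dendritic cells and neutrophils many of them recognize sugars or lipids of microbes, mites and dying cells, and they signal either through the Fc receptor gamma chain (Fcer1g) and the kinase Syk or through inhibitory motifs of their own. In the mouse, Dectin-2, a close relative of Clec4d and Clec4e, is known as a receptor for house dust mite sugars. The NK lectin-like receptors bind major histocompatibility complex proteins or the Clec2 proteins and either trigger or restrain killing, the triggering ones with the adaptors Tyrobp and Hcst. Most of these genes sit in the NK gene complex and the neighboring lectin clusters.

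Lung arrays had a 75th percentile signal of 376 to 488 and 62.1% to 68.8% of probes well above background, against 111 to 240 and 50.4% to 60.2% in adipose tissue. The number of arrays limits the precision. The lung epithelium genes (Sftpc, Sftpb, Sftpa1 and Scgb1a1) had a mean level of 7.94 to 8.23 in the lungs and −5.01 to −3.64 in adipose tissue, and the 5 adipocyte genes 5.17 to 6.54 in adipose tissue and −4.06 to −0.42 in the lungs. Adipose tissue of HDM rat 1 and control rat 1 carried epididymis genes (mean level 8.95 and 9.03, against −5.80 to −3.53 in the other 6 rats), and that of HDM rat 2 had 1224 outlier spots against 355 to 444 in the others. All 8 arrays of a tissue shared a slide, with HDM rats 1 to 4 in row 1 and HDM rat 5 and the control rats in row 2. A difference within row 2, HDM rat 5 minus the mean of the control rats, is therefore given beside the main results. A fit with the slide row as a covariate estimates this same difference from 1 HDM rat, since row 1 held HDM rats only. It is not a separate check. The p-values measure the spread between these rats.

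Clec4d and Clec4e were the only members called in the lungs, and both rose. They encode MCL and Mincle, partner receptors on myeloid cells that bind mycobacterial glycolipid. Their promoters, the 250 bases before the transcription start (RefSeq, GRCr8, 5′ to 3′ on the strand of the gene), are shown with those of the inhibitory receptor Clec4a, a neighbor in the same cluster, and of Klrb1b, the NK receptor with the smallest adjusted p in the lungs. Capitals mark matches on either strand to GAGGAA, the core bound by the myeloid factor PU.1, and to TTNNGCAA, a C/EBP motif. Clec4d lies at chr4:158275093-158275342 (+), Clec4e at chr4:158298468-158298717 (−), Clec4a at chr4:158100365-158100614 (+) and Klrb1b at chr4:163647630-163647879 (−).
Clec4d: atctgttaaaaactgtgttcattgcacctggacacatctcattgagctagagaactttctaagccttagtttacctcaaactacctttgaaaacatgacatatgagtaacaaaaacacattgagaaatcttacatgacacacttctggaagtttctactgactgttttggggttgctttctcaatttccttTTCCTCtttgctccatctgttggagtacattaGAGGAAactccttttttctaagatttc
Clec4e: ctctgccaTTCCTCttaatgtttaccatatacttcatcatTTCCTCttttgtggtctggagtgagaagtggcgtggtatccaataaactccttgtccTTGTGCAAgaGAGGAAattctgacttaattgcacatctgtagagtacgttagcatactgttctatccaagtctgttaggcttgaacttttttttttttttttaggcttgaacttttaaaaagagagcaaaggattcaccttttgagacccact
Clec4a: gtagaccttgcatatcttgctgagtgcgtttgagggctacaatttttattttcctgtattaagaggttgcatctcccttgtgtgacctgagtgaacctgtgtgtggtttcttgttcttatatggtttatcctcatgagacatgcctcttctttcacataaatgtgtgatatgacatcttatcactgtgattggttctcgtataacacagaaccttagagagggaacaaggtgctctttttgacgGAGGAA
Klrb1b: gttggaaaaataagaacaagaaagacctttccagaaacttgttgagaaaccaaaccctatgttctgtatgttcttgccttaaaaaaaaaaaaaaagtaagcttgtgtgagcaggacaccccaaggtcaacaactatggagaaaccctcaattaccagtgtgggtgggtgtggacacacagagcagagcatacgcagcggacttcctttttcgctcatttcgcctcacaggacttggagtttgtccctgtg

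GAGGAA began 59 and 27 bases before the start of Clec4d, the former on the opposite strand, and 242, 210 and 143 bases before that of Clec4e, with the C/EBP motif at 153. It lay directly before the start of Clec4a, 6 bases away, and neither motif was found in the Klrb1b window. Of the 49 genes 42 had a promoter in the table, and 13 of these held GAGGAA, among them 7 of 13 myeloid lectins and 5 of 16 NK receptors, against 23.3% of all 33469 promoters of this length. TTNNGCAA was found in 7 of the 42, with 2 myeloid lectins and 3 NK receptors, against 9.22% of all promoters. TGANTCA, an AP-1 motif, was found in 3 (6.34% of all promoters), and TATAAA, the TATA box, in 5 (12.9%). No matches overlapped in the windows shown, and a match describes the letters of the window only.

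In the lungs, Clec4d was −1.81, −1.87, −1.81, −1.82 and −1.90 in HDM rats 1 to 5 and −3.32, −3.30 and −3.73 in control rats 1 to 3. The HDM rats lay within a narrow band that no control rat reached. Clec4d was 3.05-fold higher in HDM rats, a log2 difference of 1.61 ± 0.12 (SE, n = 5 and 3) with an adjusted p of 0.00161 (limma). The exact permutation test gave p = 0.0179, the smallest that 56 splits of 8 rats allow, and the difference within row 2 was 1.55. A further probe for Clec4d was called too, at 1.76.

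Clec4e in the lungs was −3.71, −4.15, −3.31, −3.94 and −4.25 in the HDM rats, where all 5 spots were well above background. It was −6.28, −6.98 and −5.46 in the control rats, where no spot was well above background. The groups did not overlap, and the measured difference was 2.37 ± 0.35 (SE) with an adjusted p of 0.0291 (limma). Because the control level has only an upper bound, Clec4e was higher in the HDM rats by at least 2.93-fold at this scaling. The control level was set on each array at the higher of its own signal and the lowest signal among probes well above background. Within row 2 the difference was 1.99. Over 21 alternative analyses the log2 difference of Clec4e ran from 0.43 to 2.76. That of Clec4d ran from 0.68, with another background correction (normexp), to 1.68, so that the size of both depended on the processing. The call for Clec4e was lost when any of the 5 HDM rats, control rat 1 or control rat 2 was left out (differences over all 8 such fits 2.00 to 2.76), whereas that for Clec4d was kept each time. With the slide row as a covariate the differences were those within row 2, 1.55 for Clec4d and 1.99 for Clec4e. They rest on HDM rat 5 alone, so that this fit cannot decide a call. In a joint fit of the tissues with rat as a random effect Clec4e was called and Clec4d was not (adjusted p 0.186, limma).

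**Figure D1:**
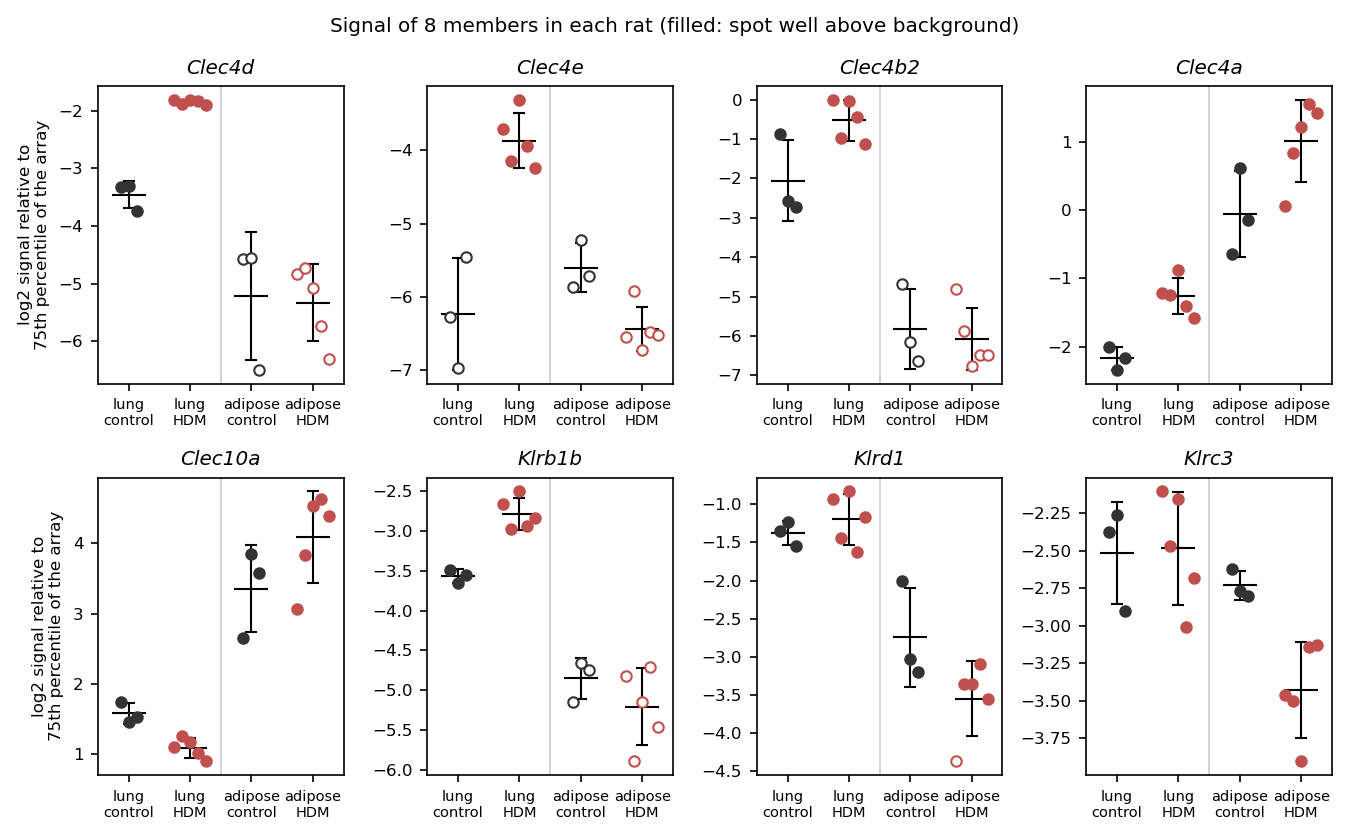
Log2 signal relative to the 75th percentile of the array (vertical axis) for 8 members in each rat, by tissue and group, with the mean and SD as bars. Points are rats, open where the spot was not well above background. Lung Clec4d and Clec4e of HDM rats lie above every control rat, while both are open symbols throughout adipose tissue.

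With both calls, 2 of 49 members rose in the lungs, both of them among the 14 myeloid lectins, and none fell. Over all probes 0.482% were called higher and 0.373% lower. With only the brightest probe of each named gene, 0.63% were called higher and 0.492% lower. All HDM rats were above all control rats for 12 members and below them for 3, where this held for 4.65% and 4.97% of all probes. In bulk tissue, a change in the number of cells of a type and a change in RNA per cell cannot be told apart.

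The 7 measured genes from Clec4a1 to Clec4e follow each other in the order of the measured members on chromosome 4. Clec6a-ps1, which had no probe, lies between Clec4b2 and Clec4d. All 7 measured genes were higher in the lungs of HDM rats, by 0.59 to 2.37 (median 0.91). For 6 of them every HDM rat lay above every control rat. The same held for 5 of the other 37 members on that chromosome, and the reverse for 2. The median of these 37 was 0.14. The block was picked out after its values were seen and was not tested. Several of its genes are close relatives, and binding of a transcript to the probe of a relative was not tested.

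Clec4a, which encodes the inhibitory receptor DCIR of dendritic cells, was −1.21, −1.24, −0.87, −1.40 and −1.59 in the lungs of HDM rats and −2.0, −2.34 and −2.17 in control rats. The groups were apart, with a difference of 0.91 ± 0.17 (SE), but the adjusted p was 0.0666 (limma). Both probes of Clec4a gave 0.91, and the difference within row 2 was 0.58. Clec4a3, Clec4a1 and Clec4a2, of the same DCIR family, differed by 0.80, 0.90 and 0.59 (adjusted p 0.111, 0.238 and 0.31), with every HDM rat above every control rat. The value for Clec4a2 was 0.39 without control rat 3. Clec4b2, an activating DCAR receptor that pairs with Fcer1g, was −0.01, −0.98, −0.03, −0.45 and −1.13 in HDM rats and −0.88, −2.58 and −2.72 in control rats. Its difference was 1.54 ± 0.47 (adjusted p 0.26), and control rat 1 lay among the HDM rats.

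**Figure D2:**
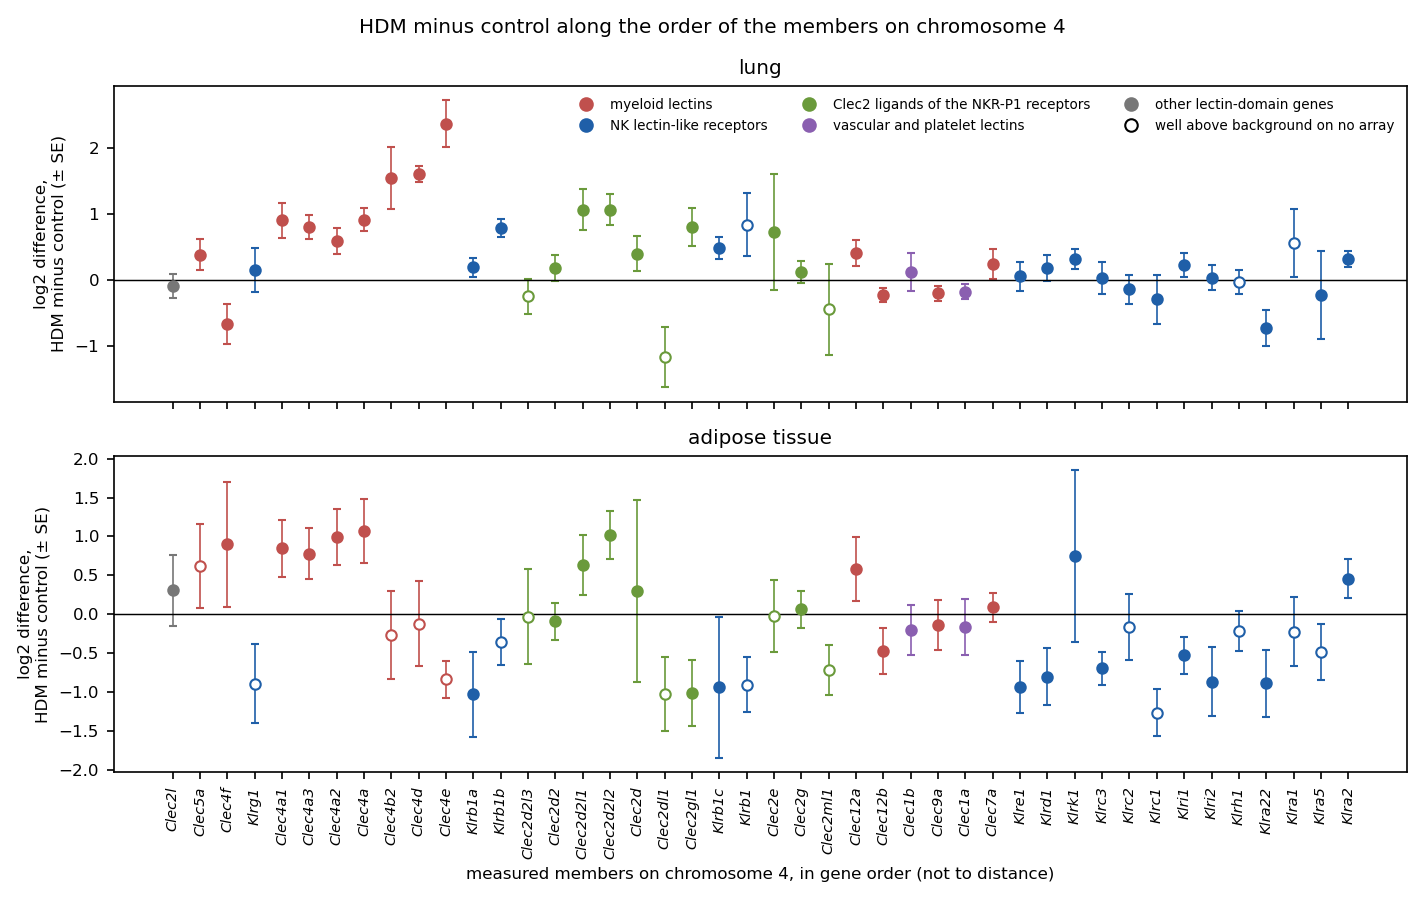
Log2 difference between HDM and control rats with its SE (vertical axis) for the 44 measured members on chromosome 4, by rank in gene order, in lung (top) and adipose tissue (bottom). Open symbols were well above background on no array. The 7 neighbors from Clec4a1 to Clec4e are all above 0 in lung, and in adipose tissue the 4 of them that were measured above background are above 0.

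The other myeloid lectins showed no common direction in the lungs. Clec10a, the macrophage galactose lectin, was 1.11, 1.26, 1.18, 1.02 and 0.90 in HDM rats and 1.74, 1.47 and 1.54 in control rats. Every HDM rat was lower, but the difference of −0.49 ± 0.12 did not pass the test (adjusted p 0.158, limma), and it was −0.68 within row 2. Clec12b, an inhibitory receptor, was likewise lower in each HDM rat (−0.23, adjusted p 0.486), and Clec12a, an inhibitory receptor for uric acid crystals, was higher in each (0.41, adjusted p 0.557). Clec7a (Dectin-1, the β-glucan receptor) differed by 0.24, Clec5a (a Tyrobp-coupled receptor) by 0.38, Clec9a (a receptor for dying cells on dendritic cells) by −0.21 and Clec4f (a Kupffer cell receptor) by −0.67. Their adjusted p ran from 0.513 to 0.875, and their groups overlapped. Over the 14 myeloid lectins, 10 were higher in HDM rats and 4 lower, with a median of 0.50 against 0.00 over all probes, and of 0.25 with the slide row as a covariate. At an unadjusted p below 0.05 there were 7 higher and 2 lower, where all probes gave 5.25% and 4.93%. The mean level of the list was −1.20 to −0.82 in the HDM rats and −1.71 to −1.37 in the control rats, without overlap.

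No NK lectin-like receptor was called in the lungs, by limma or by the methods' t-test. Klrb1b, the inhibitory receptor NKR-P1B, was −2.65, −2.97, −2.50, −2.94 and −2.84 in HDM rats and −3.49, −3.66 and −3.55 in control rats. The groups were apart (difference 0.78 ± 0.14, 0.72 within row 2), and the adjusted p was 0.0522 (limma). The exact permutation test gave p = 0.0179. Klra22, a Ly49 receptor, was −3.36, −4.45, −3.45, −4.18 and −4.26 in HDM rats and −3.16, −3.16 and −3.33 in control rats. Each HDM rat was lower, by −0.73 on average (adjusted p 0.401).

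None of the receptors best known for NK cell function passed the test in the lungs. Klrd1 (CD94, the partner of the NKG2 chains) was −0.93, −1.44, −0.82, −1.63 and −1.16 in HDM rats and −1.35, −1.23 and −1.55 in control rats. These groups overlapped, with a difference of 0.18 ± 0.20 (adjusted p 0.912). Klrk1 (NKG2D, an activating receptor for stress ligands) differed by 0.31, Klrb1a (an activating NKR-P1 receptor) by 0.19, Klrc1 (an inhibitory NKG2 chain) by −0.30, Klrc3 (a further NKG2 chain) by 0.03 and Klrg1 (an inhibitory cadherin receptor) by 0.14, and Klrb1c, an NKR-P1 receptor, by 0.48. Adjusted p for these 6 was 0.352 or higher, and the groups overlapped. Over the 18 receptors, 13 were higher in HDM rats and 5 lower (10 and 8 with median scaling of the arrays), with a median of 0.16. Unadjusted p was below 0.05 for 3 higher and 1 lower, and 3 of the 18 were well above background on no lung array. The mean level of the list was −3.78 to −2.93 in HDM rats and −3.72 to −3.47 in control rats, so that the groups overlapped.

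Clec2 proteins are the ligands of the NKR-P1 receptors, and their genes lie among those receptors. Clec2d2l2 was −2.11, −2.46, −1.91, −2.75 and −2.86 in the lungs of HDM rats and −3.55, −3.31 and −3.57 in control rats. The groups were apart, with a difference of 1.06 ± 0.23 (adjusted p 0.106, limma) and 0.62 within row 2, and its other probes gave 1.15 and 0.82. Clec2d2l1 differed by 1.06 ± 0.31 (adjusted p 0.23, 0.50 within row 2) and Clec2gl1 by 0.80 ± 0.29 (adjusted p 0.36, 0.36 within row 2), each with all HDM rats higher. Clec2d, Clec2d2 and Clec2g differed by 0.12 to 0.40 and overlapped. Clec2e was well above background in HDM rat 2 alone (−3.50, against −7.66 to −5.92 in the other HDM rats), and the other 3 were so on no lung array. The 10 genes had a median of 0.29, and none was called, with an unadjusted p below 0.05 for 3 higher and 1 lower. Shared binding among these close relatives was not tested.

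None of the 4 vascular and platelet lectins was called in the lungs. Clec14a, an endothelial lectin, was 5.57, 5.40, 5.46, 5.35 and 5.43 in HDM rats and 5.27, 5.25 and 5.07 in control rats. Every HDM rat was higher, by 0.25 ± 0.10 on average (adjusted p 0.465). A further probe for Clec14a, well above background on all 8 lung arrays, gave 0.03 ± 0.12. Clec1b (the platelet receptor for podoplanin) differed by 0.12, Clec1a (a lectin of endothelial and myeloid cells) by −0.18 and Clec4m (a liver and lymph node endothelial lectin in other species) by 0.22, all with overlap. Of the 3 remaining genes, Clec11a, a secreted growth factor, differed by −0.24 and Clec2l by −0.09, and Clec3a, a cartilage lectin, was well above background on no lung array.

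**Figure D3:**
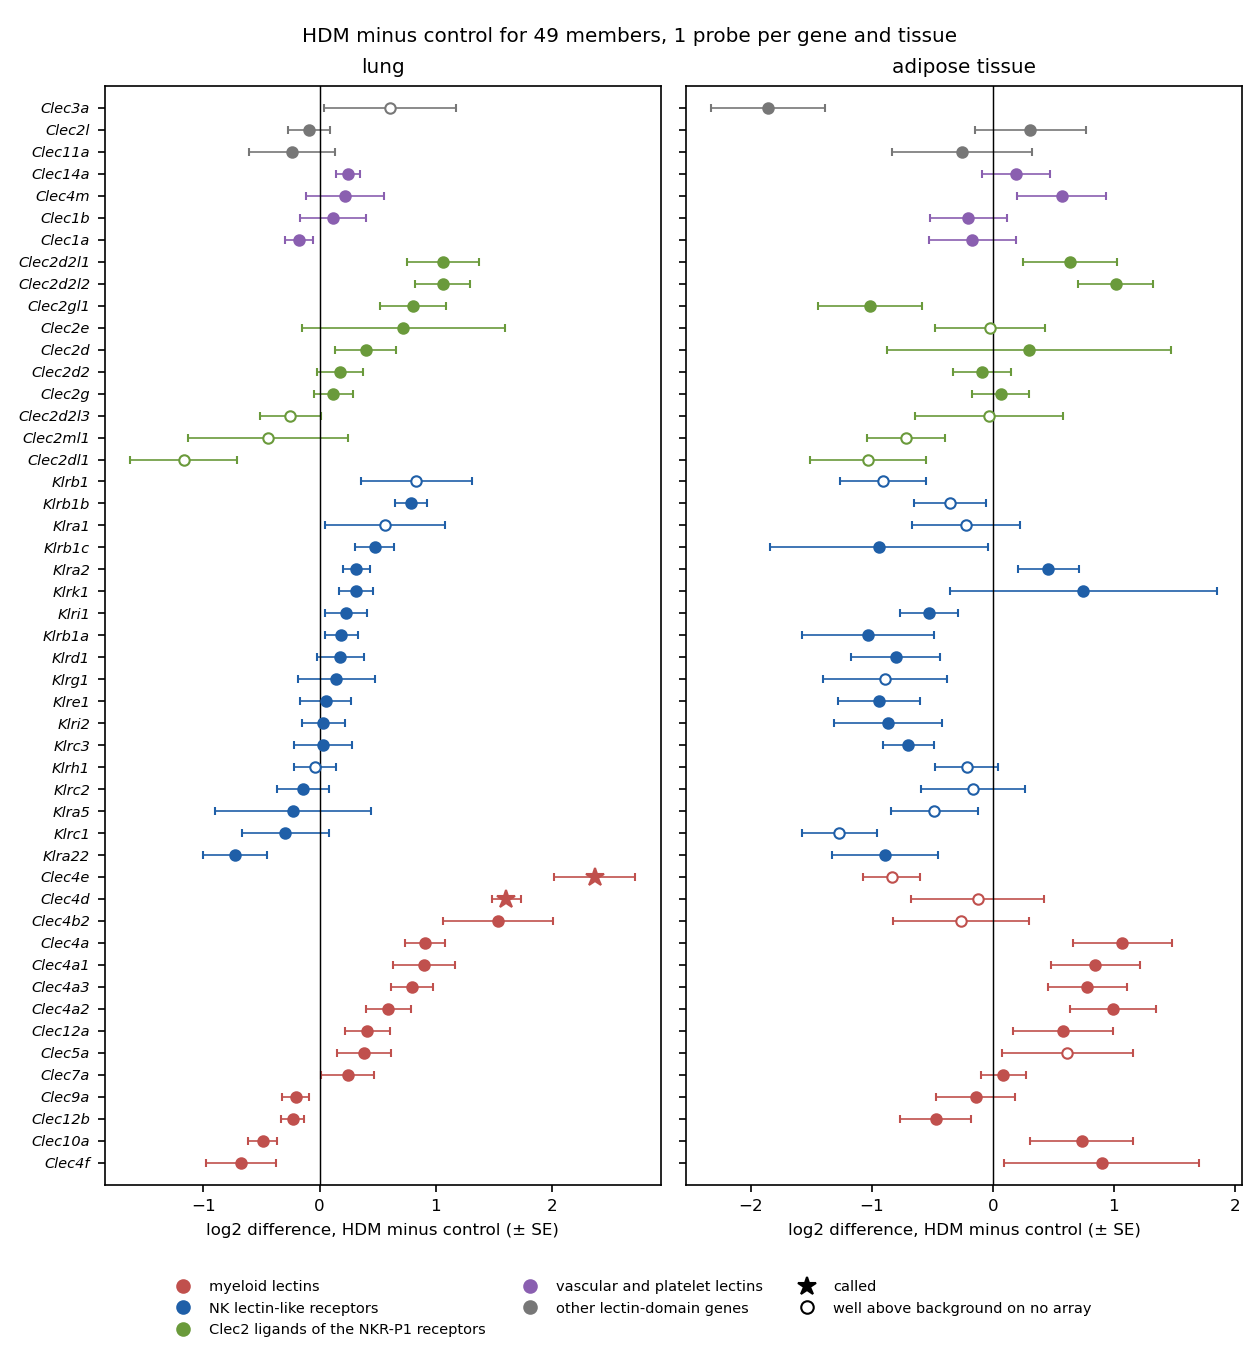
Log2 difference between HDM and control rats with its SE (horizontal axis) for each of the 49 members in lung (left) and adipose tissue (right), colored by role. Stars mark the members called, Clec4d and Clec4e in lung, and open symbols those well above background on no array of the tissue. Most NK receptors lie below 0 in adipose tissue, where none passed the test.

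The signaling partners of these receptors and markers of the cells that carry them were taken from fixed lists. Of 16 partners 14 were measured, 10 were higher in the lungs of HDM rats and none was called, with a median of 0.15 and 5 higher at an unadjusted p below 0.05. The largest differences were in Tyrobp (0.63 ± 0.17, adjusted p 0.179) and in Fcer1g (0.56 ± 0.10, adjusted p 0.0626), the adaptor of Clec4d and Clec4e, each higher in every HDM rat. Of the 10 neutrophil genes 6 rose, led by S100a8 (4.46) and S100a9 (4.09), followed by Mmp8, Mmp9, Cxcr2 and Csf3r (2.18 to 3.95), with a median of 2.32. Fpr1, a receptor for bacterial peptides, was lower in every HDM rat (−0.66, adjusted p 0.0877). The mean level of this list was −0.32 to 0.11 in HDM rats and −2.42 to −2.23 in control rats, and Ltf was well above background on no lung array. Neutrophils are known to carry Clec4d and Clec4e, and the part of neutrophil number in their rise was not tested. Of the 11 monocyte and macrophage genes none was called (median 0.14, 3 higher at an unadjusted p below 0.05). Their mean level was 1.612 to 1.736 in HDM rats and 1.514 to 1.608 in control rats, narrowly without overlap. Of the 11 NK cell genes measured, Xcl1, a chemokine of NK and T cells, rose by 1.06 (adjusted p 0.0254), and the list had a median of 0.39 with overlapping levels (1.26 to 1.68 and 1.02 to 1.36). None of the 4 eosinophil genes was called (median 1.22, 2 higher at an unadjusted p below 0.05). Their mean level was −3.99 to −3.07 in HDM rats and −4.98 to −4.24 in control rats, without overlap. The largest differences were in Prg2 (1.75, adjusted p 0.158, limma) and Ccr3 (1.56, adjusted p 0.375, limma).

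In adipose tissue no member was called, as was the case for all probes (0%). The smallest adjusted p was 0.0853 over all probes and 0.309 over the members, and the methods' t-test called none either. At an unadjusted p below 0.05 there were 4 members higher and 7 lower, where all probes gave 1.02% higher and 8.88% lower. All HDM rats were below all control rats for 4 members and above them for 0, where this held for 4.72% and 1.54% of all probes. The median over all adipose probes was −0.15, or 0.14 with median scaling of the arrays, and list medians are therefore given relative to it as well.

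The myeloid lectins and the NK receptors had medians of opposite sign in adipose tissue. Of the 14 myeloid lectins 9 were higher in HDM rats, with a median of 0.60, or 0.75 relative to all probes. Their mean level overlapped (−2.31 to −2.03 in HDM rats and −2.80 to −2.17 in control rats), and 4 of them were well above background on no adipose array. Of the 18 NK receptors 16 were lower, with a median of −0.75, or −0.60 relative to all probes. Among these 16 were 8 that were well above background on no adipose array. Over all 45598 probes, 16329 were higher in adipose tissue of HDM rats. The number of lower NK receptors was between 12 and 16 under the other scalings, and with a normexp background correction the 2 medians shrank to 0.13 and −0.04. Relative to all probes, quantile normalization gave 0.68 and −0.48. With the slide row as a covariate the median of the NK receptors was −0.49. Without HDM rats 1 and 2 and control rat 1, whose adipose arrays stood apart, the medians were 0.43 and −0.29. Neither list as a whole was tested.

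The 4 DCIR-family genes made up the upper end of the myeloid list in adipose tissue together with Clec4f. Clec4a was 0.06, 0.83, 1.22, 1.56 and 1.42 in HDM rats and −0.64, 0.61 and −0.14 in control rats. HDM rat 1 lay between the control rats and the other 4 HDM rats lay above them all, with a difference of 1.07 ± 0.41 (adjusted p 0.459, limma) and 1.47 within row 2. Clec4a2 differed by 0.99 (adjusted p 0.437), Clec4a1 by 0.85 (adjusted p 0.506) and Clec4a3 by 0.78 (adjusted p 0.489), and their groups overlapped. Clec10a was 3.06, 3.83, 4.53, 4.63 and 4.39 in HDM rats and 2.66, 3.84 and 3.57 in control rats. Its difference of 0.73 ± 0.43 was opposite in sign to that in the lungs (adjusted p 0.633), the groups overlapped, and it was 0.38 without control rat 1. Clec4d, Clec4e, Clec4b2 and Clec5a were well above background on no adipose array, so that no fold is given for them. The 11 monocyte and macrophage genes were all higher in adipose tissue of HDM rats, with a median of 0.73, an overlapping mean level (1.65 to 3.06 against 1.14 to 2.28) and 0 called. Their part in the values of the myeloid lectins was not tested. Of the 10 neutrophil genes none was called in adipose tissue (median 0.53, mean level −3.25 to −2.52 in HDM rats and −4.04 to −3.57 in control rats), with the largest differences in S100a8 (4.66, adjusted p 0.154) and S100a9 (3.83, adjusted p 0.0853), both higher in every HDM rat. Fpr1, Ltf, Ngp and Camp had differences below 0 (−1.44 to −0.17). None of the 4 eosinophil genes was called either (median −0.34).

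Of the NK receptors in adipose tissue, 8 were well above background on no array, and of the other 10 there were 8 lower. Klrc3 was measured above background on all arrays and was −3.46, −3.51, −3.91, −3.14 and −3.13 in HDM rats and −2.62, −2.77 and −2.80 in control rats. Every HDM rat was lower (difference −0.70 ± 0.21, −0.40 within row 2, adjusted p 0.386, limma). The exact permutation test gave p = 0.0357. Klrd1 was −4.37, −3.36, −3.36, −3.09 and −3.56 in HDM rats and −2.0, −3.03 and −3.20 in control rats. The difference was −0.80 ± 0.37 (adjusted p 0.53), and HDM rat 4 lay among the control rats. It was −0.43 without control rat 1. Klre1 (−0.94), Klri1 (−0.53), Klri2 (−0.87) and Klrb1a (−1.03) overlapped between the groups, as did Klra2 at 0.46.

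Klrk1 was 0.31 in adipose tissue of HDM rat 2 and −4.73 to −3.71 in the other HDM rats, against −4.65 to −3.68 in control rats. Its difference of 0.75 ± 1.10 came to −0.17 without HDM rat 2 and to 0.48 without control rat 2. Klrc1 was lower in all HDM rats but was well above background on no array, and no fold is given. The mean level of the 18 NK receptors was −4.85 to −4.56 in HDM rats and −4.40 to −3.85 in control rats. The level of the list was lower in every HDM rat, but 8 of its genes were well above background on no adipose array and only 3 on all. The 11 NK cell genes had a median of −0.37 in adipose tissue, with 10 of 11 lower, none called and overlapping mean levels (−1.07 to −0.62 against −0.65 to 0.22). The largest of these differences were in the granzymes Gzma (−1.50, adjusted p 0.601) and Gzmb (−1.37, adjusted p 0.353).

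The remaining roles had no common direction in adipose tissue. Clec2d2l2 differed by 1.02 ± 0.31 (adjusted p 0.388) and by 0.72 and −0.19 with its other probes, Clec2d2l1 by 0.64 and Clec2gl1 by −1.02, and their groups overlapped. Of the 10 Clec2 genes 4 were well above background on no adipose array, and the median was −0.03. The 4 vascular and platelet lectins differed by −0.20 to 0.57. Clec3a was −6.27, −5.66, −6.52, −6.27 and −5.08 in HDM rats and −4.56, −4.70 and −3.05 in control rats. Only the spot of control rat 3 was well above background, so that no fold is given for Clec3a (adjusted p 0.321, limma). Clec11a and Clec2l differed by −0.25 and 0.31. Of the 14 signaling partners none was called (median 0.23), the largest differences being in Plcg2 (−0.94, adjusted p 0.792) and Fcer1g (0.87, adjusted p 0.481).

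The change in the lungs was set against that in adipose tissue within each rat. In a check of this pairing, lung and adipose tissue of the same rat had correlations of −0.10 to 0.11. No member differed between the tissues in its response by limma, at 0.00219% of all probes called. At an unadjusted p below 0.05 the difference was above 0 for 10 members and below 0 for 1, where all probes gave 6.34% and 1.41%. By the methods' t-test none was called. Clec4e, Clec4b2, Clec4d and Klrb1b were well above background on no adipose array, so that no size is given for them (adjusted p 0.247, 0.447, 0.484 and 0.463). For Clec2gl1 the difference of differences was 1.82 ± 0.55 (adjusted p 0.519). Clec10a, measured in both tissues, had −1.22 ± 0.49 (adjusted p 0.622). An effect of HDM that differs between tissues was therefore not shown for any member.

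Where the members were expressed in control rats was read from the difference between lung and adipose tissue of the same rat. Each tissue lay on a slide of its own, so that tissue and slide cannot be told apart. Of the 49 members 16 were called higher in lung and 8 lower, against 12% and 32.2% of all probes. With quantile normalization the counts were 31 and 2, with scaling to the median 18 and 7, with the percentile taken over probes well above background 21 and 6, and with normexp 19 and 1. The median was −0.58 over all probes and 0.10 over the members. Well above background in a tissue here means on at least 1 of its 3 control arrays. Among the 31 members well above background in both tissues, 12 were called higher in lung and 5 lower.

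Clec7a had the largest of these differences, at 3.06 ± 0.09 (SD, n = 3) in lung and −1.07 ± 0.12 in adipose tissue, a 17.6-fold difference (adjusted p 3.67e-05, limma). The endothelial and platelet lectins Clec14a, Clec1a and Clec1b were higher in lung by 3.1, 2.40 and 2.12. Of the NK receptors, Klre1 (2.60), Klrb1a (1.56), Klri2 (1.39), Klrd1 (1.37) and Klri1 (1.30) were higher in lung. Of the myeloid lectins, Clec4a2 (2.59), Clec12a (2.49) and Clec9a (1.15) were also higher. The calls for Clec9a, Klrb1a, Klrd1 and Klri2 were lost without 1 or more of the control rats (0.89 without control rat 1 for Clec9a, 1.17 without control rat 3 for Klrb1a, 1.15 and 0.91 without control rat 2 for Klrd1 and Klri2). A lower level in lung was found for Clec11a (−3.44), Clec4a (−2.11), Clec10a (−1.77), Clec2gl1 (−1.70) and Clec2l (−0.99). Clec11a and Clec2gl1 were each well above background on 1 of 3 lung arrays. Of the 5 lower genes only Clec11a was called under each scaling. With quantile normalization Clec4a was −0.84, Clec10a −0.59 and Clec2gl1 −0.14, none of them called, and Clec2l changed sign to 0.46. With normexp Clec4a was −0.56 and Clec10a −0.62, and Clec2l was 0.19. The calls for Clec10a, Clec2gl1 and Clec2l were also lost without control rat 2. Within the DCIR family, Clec4a2 was called higher in lung under each scaling, Clec4a1 (−0.77, with quantile normalization 0.45) under none, and Clec4a3 (−0.18) was called higher with quantile normalization (1.01) and with normexp (0.97).

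**Figure D4:**
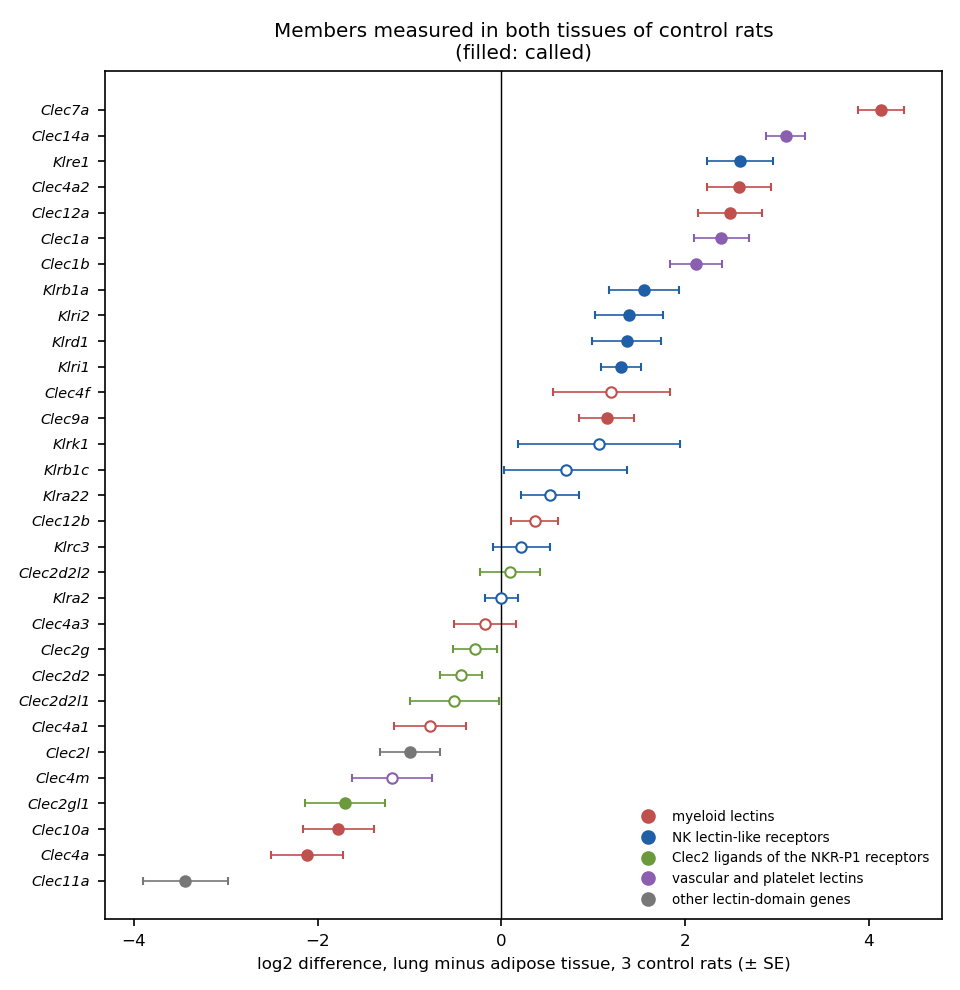
Log2 difference between lung and adipose tissue of the 3 control rats with its SE (horizontal axis) for the 31 members well above background in both tissues, colored by role and filled where called. Clec7a is farthest to the right at 4.13, and Clec11a farthest to the left at −3.44.

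Another 8 members were well above background in lung only. Of these, Clec4b2 was at least 4.05-fold higher in lung (adjusted p 0.000259), Clec4d at least 1.54-fold (adjusted p 0.0077), Klrb1b at least 1.42-fold (adjusted p 0.00421) and Klrc2 at least 1.06-fold (adjusted p 0.001), all by limma. Clec3a was well above background in adipose tissue only, on 1 of 3 arrays. It was called higher there (adjusted p 0.00152, limma), but no fold is given. The other 9, with Clec4e among them, were well above background in neither tissue of the control rats. The 2 calls among those 9, Klrb1 and Klrh1, carry no fold.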

How the data were processed

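Lung and adipose tissue RNA of 8 rats was measured on 16 arrays, grouped by the labels. For each array the authors deposited spot intensity on a linear scale from Agilent Feature Extraction 12.0.3.1, with the background subtracted and no scaling between arrays. A log2 matrix made in GeneSpring was deposited too, and its steps are not given in the sources used here. With percentile scaling (75th) and centering of each probe within a tissue, the intensities came within 0.1 of it on the log2 scale for 99.97% of lung cells and for 99.85% of adipose cells. In 39 cells it holds text.

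From the intensities, control probes and outlier spots were left out, log2 signals of replicate spots were averaged, and each array was shifted by its own 75th percentile. None of the 60 member probes was saturated on any array. HDM and control rats were compared in each tissue with limma 3.58.1 in R 4.3.3, with Benjamini–Hochberg adjustment over 45598 probes. The thresholds are those of the methods, which name a t-test. Exact permutation tests of single members were two-sided, over 56 splits. The fits were tested on simulated data. Figures and sequences were handled with Python 3.11.15, numpy 2.4.6, pandas 2.3.3 and matplotlib 3.10.9.

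Probes were named through their RefSeq accessions and a RefSeq list of 47357 rat genes (GRCr8), which named 21229 probes. Promoters came from RefSeq. The members, lists and tests were chosen with earlier results of these data known. Named are the members called, the 2 of each role with the smallest p in each tissue and a fixed set of known receptors. Other members are named by place in the gene order, detection or group separation, after their values were seen. Of the lists, genes called are named. Other list genes are named by size of change, direction or detection, after their values were seen, and not for every list. Marker lists of dendritic, T and B cells and platelets were also run, with 0 genes called in either tissue. Their medians were −0.19, 0.03, 0.05 and 0.20 in lung, and for adipose tissue 0.09, −0.36, 0.04 and 0.40. The mean level of the T cell list in lung was −0.72 to −0.58 in HDM rats and −0.84 to −0.73 in control rats, narrowly without overlap. The alternatives were other normalizations, a normexp background correction (median spot signals, offset 50) with quantile normalization, the t-test, filters, array weights, blocks, the deposited log2 matrix, other probes and leaving out each rat. One more, leaving out rats whose adipose arrays stood apart when the tissues were compared, was added after seeing the data.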

Additional observations from a re-analysis of the deposited data

Results flagged for a closer look

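In 5 of the 75 groups of 5 HDM rats examined, 1 rat lay so far from the other 4 that its gap to the nearest exceeded 0.71 of the whole range, Dixon's critical value. Chance flags about 1 in 20 such groups. In adipose tissue, HDM rat 2, whose array had the most outlier spots, stood apart for Klrk1 (0.311, others −4.73 to −3.71) and for Clec2d (−0.08024, others −5.76 to −4.43). HDM rat 3 stood apart for Klrb1c in adipose tissue (−1.993, others −5.81 to −4.81) and for Klrc1 in the lungs (−3.693, others −5.38 to −4.92). HDM rat 4 stood apart for Clec7a in adipose tissue (−0.5666, others −1.12 to −1.0). All are log2 signals relative to the 75th percentile of the array, and all lie on the high side. The part of spot quality in these values was not tested.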

How the results depend on the processing

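The number of members called in the lungs was 2 and became 4 with quantile normalization, 4 with each array scaled to its median, 5 with array weights, 6 of 39 with dim probes left out and 9 with adjustment over probes past 1.5-fold only. It was 1 with the methods' t-test, 1 when lung and adipose arrays were fitted jointly with a random effect of rat (Clec4e, not Clec4d) and 0 with the slide row as a covariate, and 1 to 2 over the fits that omitted a single rat. The replicate numbers did not pair the rats (correlation of the same number in HDM and control rats lung −0.06, −0.08 and 0.05, adipose tissue 0.59, 0.14 and 0.10), and with the replicate block 0 members were called. Clec4d was called in 18 of 21 alternatives and Clec4e in 10. Klrb1b was called in 6, Clec4a in 5, and Clec2d2l2 in 3. In adipose tissue, array weights gave 1 call (Clec4e lower, adjusted p 0.0393, limma), and normexp gave 1 for the difference between tissues (Clec4d, adjusted p 0.0239, limma). Both were well above background on no adipose array. The median of the myeloid lectins in lung was 0.50 and became 0.25 with the slide row. In adipose tissue it was 0.60 and became 0.13 with normexp, with 0.30 to 0.93 when each rat was left out. That of the NK receptors, −0.75, became −0.45 with quantile normalization, −0.46 with scaling to the median, −0.039 with normexp, −0.49 with the slide row and −0.29 without the 3 arrays that stood apart, with −0.79 to −0.45 when each rat was left out. The cause of these shifts was not tested. No called difference between HDM and control rats reversed. Of the calls between lung and adipose tissue, Clec2l (−0.99) became 0.46 with quantile normalization and 0.19 with normexp, and the dim Klrb1 and Klrh1 came to 0.02 and 0.06 with normexp. Dim signal limits the adipose values, with 16 of 49 members well above background on no array.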
